A study of Mus musculus with 14 samples.

Results

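The fetal bladder urothelium of mouse embryos without Cre recombinase was described here from 7 lysates, the Cre-negative littermates numbered 1 to 7, out of 14 libraries in the study. They were chosen by label alone, and no value was used to choose them. The other 7 libraries were 5 Dnmt1cKO lysates (Shhcre/+; Dnmt1flox/flox) and 2 Control lysates (Shhcre/+; Dnmt1flox/+), and they enter none of the values given here. All 14 came from embryos of the strain C57BL/6; 129S4 at embryonic day 15.5. The labels call the 7 lysates Cre-negative littermates and do not give their Dnmt1 alleles, so whether these embryos carry floxed Dnmt1 cannot be read from them. Trypsin was used to free the urothelium from the stroma, each lysate combined the tissue of several embryos, and polyadenylated RNA was sequenced. A lysate is therefore a mean over embryos, over the cells of all layers and over any stromal cells left behind. With pooled tissue, fewer cells of a type and less RNA per cell cannot be told apart.

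The inner lining of the bladder is the urothelium. In the mature organ, basal cells rest on the basement membrane, intermediate cells lie above them, and superficial umbrella cells face the urine with plaques made of uroplakin proteins that keep water and solutes out. At this fetal stage the epithelium grows, is still stratifying, and secretes Sonic hedgehog, which signals to the mesenchyme that will form the bladder wall.

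Levels are given in CPM, the counts of a gene per 1000000 counts of its lysate. The counts are those the authors deposited, the estimates of RSEM, which can be fractions where reads are shared between genes. Where levels of different genes are compared, CPM was divided by the length of the gene's exons in kb, because a long transcript collects more reads. Errors are standard deviations over the 7 lysates (n = 7 throughout). A gene counts as expressed where it reached at least 1 CPM in each of the 7 lysates, and as silent where no lysate had a count. Genes with some counts that are not expressed by this rule are described as between. Genes of that class that are named with values were picked after their values were seen.

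The lysates differed in depth and in the shape of their libraries. Totals were 12958881, 3111972, 5972976, 11527617, 8439643, 7871242 and 10870652 counts in lysates 1 to 7. With each lysate thinned to 3111944 counts, between 9823 genes in lysate 6 and 12233 genes in lysate 4 had a count. Lysates 2 and 3 leaned toward short transcripts. For the 265 expressed genes with exons of at most 1 kb, the median log2 ratio to the mean of the 7 lysates was 0.71 in lysate 2 and 0.32 in lysate 3, and it lay between -0.42 and -0.29 in the other 5. For the 565 expressed genes over 8 kb it was -0.85 in lysate 2 and -0.60 in lysate 3, and between 0.01 and 0.29 in the other 5. Lysates 4 and 5 held the most stromal transcripts, with summed stromal marker levels of 1970 and 3382 CPM, against 184 to 683 CPM in the other 5. Lysate 2 had next to no Y-linked transcripts, with a sum of 2.25 CPM over 4 genes, against 226 to 391 CPM in the other 6. Means without lysates 2 and 3 or without lysates 4 and 5 were computed after seeing the data. Of 167 genes given with values, 7 had a mean that moved by over 1.5 times without lysates 2 and 3, and 14 without lysates 4 and 5. Of these, 3 and 9 averaged at least 10 CPM, and both of their means are given. The others were Cd44, Krt20, Aif1 and Nanog without lysates 2 and 3, and Lor, Gli1, Lef1, Ccnd1 and Scnn1a without lysates 4 and 5.

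Of 20308 genes in the table, 7415 (36.5%) were expressed, 6118 (30.1%) were silent and 6775 lay between. The counts of each gene list below are to be read beside these shares. Counts were concentrated in few genes. The 115 genes that averaged at least 1000 CPM took 22.5% of the counts, and the 2108 genes between 100 and 1000 CPM took 49.7%. All of the 115 and 2107 of the 2108 were expressed. The exception was Agrn, the basement membrane proteoglycan agrin, with 169.7, 0.964, 90.7, 175, 144, 73.4 and 119 CPM in lysates 1 to 7. It missed the threshold in lysate 2, where it was low, and lay between 73.4 and 175 CPM in the other 6. Below 100 CPM, 6650 genes averaged 10 to 100 CPM and took 26.4% of the counts, and 3024 genes averaged 1 to 10 CPM and took 1.37%. Of the 8873 genes that averaged at least 10 CPM, 1535 were not expressed by the rule, since at least 1 lysate was under 1 CPM. Without lysates 2 and 3, 8295 genes were expressed and 6312 were silent, and without lysates 4 and 5 the counts were 7593 and 6680.

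The 5 marker genes of the epithelium were expressed. Genes known from basal cells and genes known from intermediate or superficial cells were found in the same lysates. Which cells or layers held them cannot be read from pooled tissue. Per kb of exon, Upk1b and Krt7 stood highest of the 5, and Krt5 and Trp63 lowest. This is not an order of layers, since the basal keratin Krt15, which is not among the 5, averaged 1461 ± 567 CPM per kb. Upk1b, a tetraspanin of the apical plaque (chr16:38773184-38800328, minus strand, mm10), measured 2169, 2276, 1911, 1314, 1652, 1987 and 1481 CPM in lysates 1 to 7. The highest lysate held 1.73 times the lowest. Krt7, a keratin of simple and urothelial epithelium (chr15:101411043-101430313, plus strand), measured 1609, 1951, 1928, 1337, 1632, 1948 and 1731 CPM. Lysate 4 was the lowest for both Upk1b and Krt7. Shh, the hedgehog ligand (chr5:28456815-28467256, minus strand), measured 362, 158, 229, 219, 293, 263 and 380.1 CPM. Its level was lowest in lysate 2 and highest in lysate 7, and 2 annotated genes overlap it on the other strand, whose reads cannot be told apart where counting ignores strand. Trp63, the transcription factor p63 of basal cells (chr16:25683763-25892102, plus strand), measured 248, 122, 95.9, 147, 119, 329 and 208 CPM. Krt5, the basal type II keratin (chr15:101707070-101712898, minus strand), measured 197, 174, 105, 128, 134, 264 and 126 CPM, and Gm44323 is annotated antisense to it. Lysate 6 held the highest level of both basal genes and lysate 3 the lowest. In CPM per kb the 5 genes averaged 965 ± 189 for Upk1b, 424 ± 55.8 for Krt7, 95.5 ± 27.9 for Shh, 73.3 ± 25.05 for Krt5 and 21.6 ± 10.1 for Trp63. The order was separated beyond these spreads at Krt7 over Shh, while Shh and Krt5 lay within a standard deviation of each other, and Trp63 lay below Krt5. Upk1b also exceeded Krt7 per kb by more than these spreads. In CPM, however, the means were close, at 1827 ± 357 for Upk1b and 1734 ± 229 for Krt7. Their gap per kb rests on the exon lengths used, 1894 and 4094 bases, which the spreads do not cover. The order of Krt5 over Trp63 rests on length too, with 2197 and 8391 bases. In CPM these 2 overlapped, at 161 ± 55.0 for Krt5 and 181 ± 84.6 for Trp63.

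**Figure D1:**
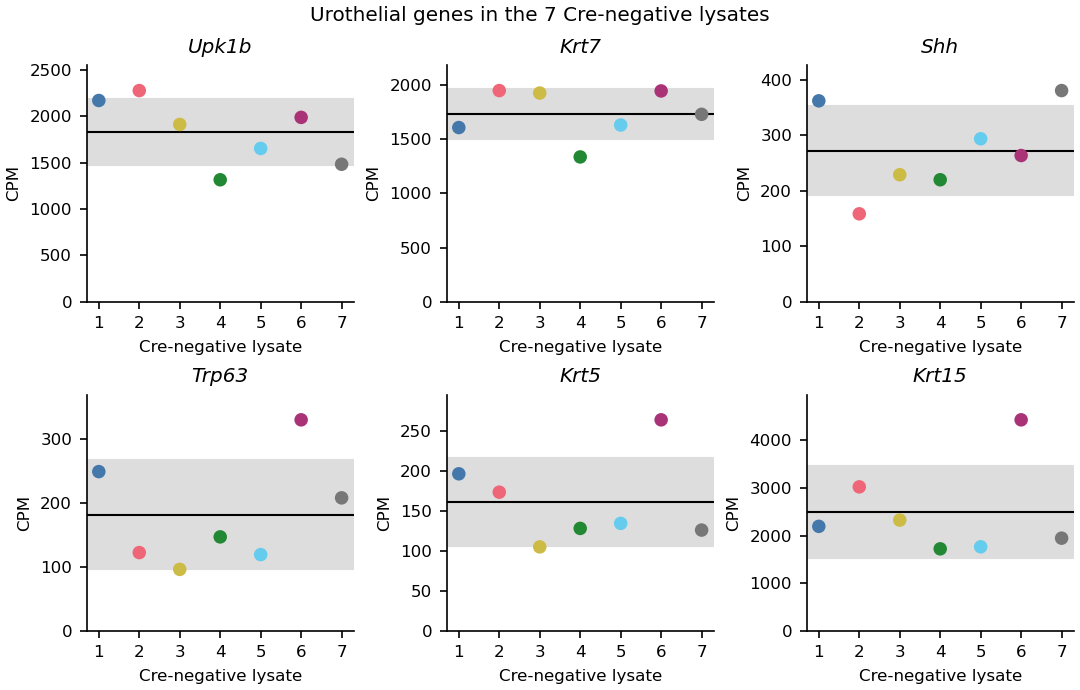
Level of 5 marker genes and of the basal keratin Krt15 in CPM (y axis) in lysates 1 to 7 (x axis), 1 panel per gene, with the mean as a line and 1 SD either way as a grey band. Upk1b and Krt7 stayed between 1314 and 2276 CPM, and Trp63, Krt5 and Krt15 were highest in lysate 6.

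Promoters of the layer genes differed in sequence, and 4 are printed because they show how far genes of one epithelium, expressed in the same lysates, lie apart in CpG content. Each is the RefSeq window of GRCm38.p6 from 250 bases before to 50 bases after the annotated start, printed 5′ to 3′ on the strand of the gene. Capitals mark each CG and each TATAAA. The Krt7 window (chr15:101412153-101412452, plus strand) holds 21 CG, the Krt8 window (chr15:102004293-102004592, minus strand) holds 6 CG and a TATAAA that starts at base 250, the Krt5 window (chr15:101712856-101713155, minus strand) holds 6 CG, and the Upk1a window (chr7:30612685-30612984, minus strand) holds 0.
Krt7: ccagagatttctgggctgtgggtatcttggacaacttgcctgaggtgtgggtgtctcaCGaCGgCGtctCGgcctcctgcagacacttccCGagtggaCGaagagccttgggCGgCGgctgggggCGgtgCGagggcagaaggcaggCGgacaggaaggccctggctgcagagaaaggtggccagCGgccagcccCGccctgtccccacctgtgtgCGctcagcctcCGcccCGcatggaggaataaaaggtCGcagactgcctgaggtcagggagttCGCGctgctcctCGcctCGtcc
Krt8: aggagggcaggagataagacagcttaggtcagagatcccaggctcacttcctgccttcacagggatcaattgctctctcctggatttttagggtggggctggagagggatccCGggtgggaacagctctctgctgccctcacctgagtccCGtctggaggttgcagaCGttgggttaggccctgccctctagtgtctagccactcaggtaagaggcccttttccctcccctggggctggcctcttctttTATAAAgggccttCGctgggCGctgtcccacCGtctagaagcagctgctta
Krt5: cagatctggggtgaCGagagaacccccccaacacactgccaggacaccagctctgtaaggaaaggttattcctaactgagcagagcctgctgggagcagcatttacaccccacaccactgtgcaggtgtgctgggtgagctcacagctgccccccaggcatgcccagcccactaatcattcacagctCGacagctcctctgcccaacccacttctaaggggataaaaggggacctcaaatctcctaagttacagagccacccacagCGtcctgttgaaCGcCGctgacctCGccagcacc
Upk1a: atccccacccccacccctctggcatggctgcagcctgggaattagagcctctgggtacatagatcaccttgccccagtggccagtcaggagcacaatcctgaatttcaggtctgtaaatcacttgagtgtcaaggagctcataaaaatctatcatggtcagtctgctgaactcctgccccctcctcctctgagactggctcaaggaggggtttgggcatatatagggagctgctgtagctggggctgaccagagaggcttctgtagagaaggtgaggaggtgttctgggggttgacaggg
The ratio of CG found to CG expected from base composition was 0.641 in Krt7, 0.238 in Krt8, 0.251 in Krt5 and 0 in Upk1a. The windows of Upk1b, Shh and Trp63 are not used here.

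Of 18 genes known from basal urothelial cells, 11 were expressed and none was silent. Krt15, a type I keratin of basal cells, was the highest of them at 1461 ± 567 CPM per kb. It measured 2192, 3021, 2323, 1721, 1763, 4427 and 1944 CPM in lysates 1 to 7, and lysate 6 stood above the other 6. The water and glycerol channel Aqp3 averaged 200.4 ± 57.97 CPM per kb and the laminin receptor Bcam 164 ± 31.7. The laminin-binding integrin Itga6 measured 164, 2.25, 32.8, 146, 175, 124 and 40.8 CPM in lysates 1 to 7. It was low in lysates 2, 3 and 7, and its mean was 97.8 CPM over the 7 lysates and 129.9 CPM without lysates 2 and 3. The other keratins of basal cells were scarce. Krt14 measured 2.86, 0.643, 0, 2.18, 8.16, 6.40 and 2.12 CPM, Krt17 reached at most 0.368 CPM, and Cd44 and Ngfr, surface proteins that mark basal cells in the adult, averaged 0.101 ± 0.119 and 0.466 ± 0.780 CPM. The summed level of the 18 genes was 4186, 4666, 3632, 3568, 3439, 6792 and 3556 CPM, and lysate 6 was highest.

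Of 24 genes of intermediate and superficial cells, 21 were expressed and none was silent. Their summed level was 14881, 16650.5, 16256, 11697, 14171, 15608 and 13159 CPM in lysates 1 to 7, with the lowest sum in lysate 4. The simple-epithelial keratins led the list. Krt8 averaged 1606 ± 220.3 CPM per kb, Krt18 1079.5 ± 359 and Krt19 1026 ± 152. The 4 uroplakins of the plaque were all expressed. Beside Upk1b, the tetraspanin Upk1a averaged 461 ± 70.1 CPM per kb, Upk3a 298 ± 97.2 and Upk2 207 ± 109.6. Upk1a and Upk1b pair with other uroplakins in the plaque. The Upk1b level per kb was above that of Upk1a by more than the sum of their spreads. Upk2, which pairs with Upk1a, measured 158, 472, 283, 141, 181, 177 and 157 CPM. Upk3a, which pairs with Upk1b, measured 381, 404, 499, 206, 264, 291 and 231 CPM. All 9 genes of vesicle traffic in the list were expressed, among them Snx31, a sorting nexin that binds uroplakins, at 145 ± 29.8 CPM per kb, and Rab27b, a small GTPase of fusiform vesicles, at 90.00 ± 24.4. The GPI-anchored protein Psca averaged 473 ± 273 CPM per kb and the apical proteolipid Mal 335 ± 71.7.

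Some genes of mature urothelium were low or missing in part of the lysates. Krt20, a keratin of mature umbrella cells, measured 3.86, 0, 24.6, 0, 9.83, 0 and 4.51 CPM in lysates 1 to 7. Its counts were 0 in 3 lysates and highest in lysate 3. Krt13, a keratin of intermediate cells, measured 2.32, 10.9, 0, 3.12, 0, 20.7 and 0 CPM. Fabp4, a fatty acid binding protein of the adult mouse urothelium and of fat and vessels, measured 21.7, 122, 93.3, 9.28, 13.5, 0.127 and 27.6 CPM. It was lowest in lysate 6 and highest in lysate 2, and its mean was 41.1 CPM over the 7 lysates and 14.4 CPM without lysates 2 and 3. Of 24 genes of squamous and cornified epithelium, 7 were expressed and 8 were silent. The cornified envelope precursors Sprr1a and Ivl averaged 327 ± 183 and 104 ± 29.8 CPM per kb, the plakins Evpl and Ppl 97.4 ± 33.4 and 75.8 ± 33.2, the keratin Krt4 217 ± 73.2 and the GPI-anchored Ly6d 119 ± 61.6. Krt6b, Sprr1b, Sprr2f and Cnfn were silent, and the epidermal genes Krt1 and Lor averaged 0.707 ± 1.66 and 0.110 ± 0.259 CPM. Over the whole keratin family, 8 of 50 genes were expressed and 25 were silent. The 8 were Krt8, Krt15, Krt18, Krt19, Krt7, Krt4, Krt5 and Krt78, and the silent ones included keratins of the hair and of its inner root sheath, such as Krt25, Krt27, Krt31 and Krt71.

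**Figure D2:**
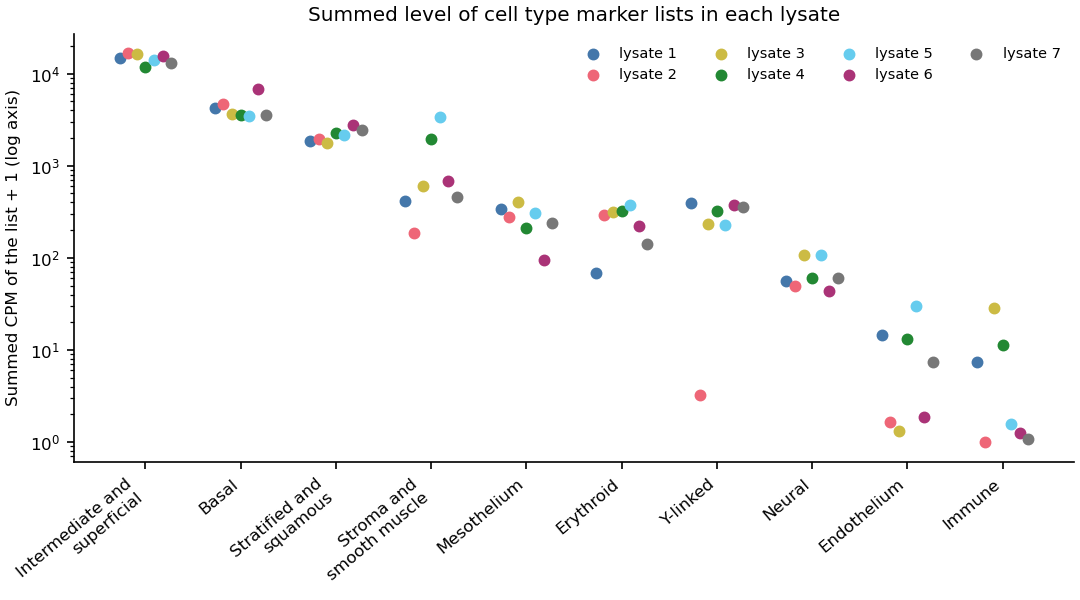
Summed level of 10 marker lists (x axis) in each of the 7 lysates (dots), in CPM + 1 on a log axis (y axis). The luminal sums lay between 11697 and 16651 CPM in the 7 lysates, the stromal sums ran from 184 to 3382 CPM, and the endothelial and immune sums did not pass 29.03 CPM.

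The genes with the most reads had varied roles. Eef1a1, which brings transfer RNA to the ribosome, had 7484 ± 1502 CPM, followed by the ribosomal protein gene Rpl5 with 5444 ± 1399, the poly(A) binding protein gene Pabpc1 with 5392 ± 1131 and the chaperone gene Hsp90ab1 with 5228 ± 1159. Next came Rps3a1, Ncl, a nucleolar protein gene with 4064 ± 1396 CPM, and the cell contact gene Ctnnb1 with 3777 ± 817 CPM. The rest of the first 15 were Rpsa, Hnrnpa3, Rplp0, Cdh1 with 3444 ± 771 CPM, Rpl19, Hspa8, Hmgb1 and Krt8 with 3144 ± 431 CPM. Per kb the order changed and 11 of the first 15 genes were ribosomal protein genes. Rps3a1 averaged 4492 ± 1134 CPM per kb, Rpl19 4283 ± 1344 and Eef1a1 4172 ± 837, which did not differ beyond their spread. The ribosomal protein genes together took 14.3% of the counts in lysate 2 and 10.2% in lysate 3, and 5.68% to 7.31% in the other 5, and the part of the shift toward short transcripts in this was not tested. Of 82 such genes, 77 were expressed. Rps27, a gene every cell uses, was listed at 0 in the 7 lysates, so silent means here that a gene is listed at 0 and no more than that. The ribosomal genes often share sequence with processed pseudogenes, and their estimates are uncertain for that reason.

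Of 29 genes of epithelial junctions, 26 were expressed. The adherens junction genes Cdh1, E-cadherin, and Ctnnb1, beta-catenin, averaged 777 ± 174 and 1042 ± 226 CPM per kb, and all 5 genes of that role were expressed. Cd9, a tetraspanin of epithelial membranes, averaged 921 ± 224 CPM per kb and the adhesion molecule Epcam 380.0 ± 70.4. At tight junctions 12 of 13 genes were expressed, led by Cldn4 at 339.5 ± 71.1 CPM per kb and F11r, the junctional adhesion molecule JAM-A, at 224 ± 80.8. Within the claudin family, 8 of 25 genes were expressed and 11 were silent. After Cldn4 the next claudins were Cldn7 with 43.5 ± 15.5 and Cldn8 with 31.6 ± 9.91 CPM per kb, so Cldn4 exceeded them by far more than the spread. Desmosomes were represented by Dsp, Jup, Pkp3, Dsc2 and Dsg2, and the epidermal desmogleins and desmocollins Dsg1a, Dsg3 and Dsc1 were silent.

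Matrix and integrin genes were expressed in part. Of 40 genes, 17 were expressed and 2, Col4a3 and Itga2, were silent. The integrin beta chain Itgb1 averaged 182 ± 30.8 CPM per kb, the laminin chain Lamb1 62.2 ± 11.5, and the collagen IV chains Col4a5 and Col4a6 51.4 ± 31.1 and 28.7 ± 17.6. Col4a1 and Col4a2, the chains of most basement membranes, averaged 8.44 ± 8.39 and 3.45 ± 3.25 CPM per kb, below Col4a5 by more than the spread. The mean of Col4a1 was 55.9 CPM over the 7 lysates and 24.6 CPM without lysates 4 and 5. Col4a5 measured 339.5, 44.3, 99.8, 511, 607, 383 and 369 CPM in lysates 1 to 7, and Col4a6 ran from 25.4 to 371 CPM. Both were lowest in lysates 2 and 3 and highest in lysate 5, which also held the most stromal transcripts, whose part in these values was not tested. The mean of Col4a5 was 336 CPM over the 7 lysates, 442 CPM without lysates 2 and 3 and 247 CPM without lysates 4 and 5. Lama3 and Itgb4, a laminin chain and an integrin chain of hemidesmosome attachment, fell short of 1 CPM in at least 1 lysate, with 54.4, 0.964, 14.4, 44.2, 39.9, 57.2 and 31.8 CPM for Lama3 and 0.502 to 67.3 CPM for Itgb4.

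Of 650 transcription factor genes in the lists, 188 (28.9%) were expressed and 191 were silent, against 36.5% and 30.1% over all genes of the table. Without lysates 2 and 3 the expressed number was 215. Of the 20 highest per kb, 19 are given. Id1, an inhibitor of basic helix-loop-helix factors, was the highest at 524 ± 243 CPM per kb, its relative Id3 averaged 89.3 ± 31.6 and the Notch target Hes1 68.9 ± 42.1. Id1 exceeded Elf3, the next factor, by more than its spread, with 657, 1145, 494, 266, 492, 457 and 745 CPM in lysates 1 to 7. Several of the others are known from epithelia. The ETS factors Elf3 and Ehf averaged 135 ± 44.2 and 102 ± 38.4 CPM per kb, and the grainyhead factor Grhl3, required for umbrella cells in the mouse, 74.6 ± 25.2. The nuclear receptor Nr2f2, also known as COUP-TFII, averaged 114 ± 31.2 CPM per kb, and Mycl, a MYC family member, 93.9 ± 20.8.

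Factors that pattern endoderm and urothelium were also expressed. Gata2 and Gata3 averaged 68.6 ± 14.96 and 46.6 ± 9.90 CPM per kb, the pioneer factor Foxa1 64.5 ± 15.2, the retinoid X receptor Rxra 46.1 ± 13.02 and the T-box repressor Tbx3 41.2 ± 5.62. Tbx3 was among the steadiest of the factors, with 265, 207, 195, 238, 201, 177 and 216 CPM in lysates 1 to 7. The remaining 6 of the 19 were Usf1, Hoxb7, Ets2, Atf1, Atf4 and Fosl2, between 50.8 and 66.6 CPM per kb. Of 31 factors with known roles in urothelial identity or differentiation, 23 were expressed and 1, Gata4, was silent. Pparg, a nuclear receptor that drives superficial differentiation, averaged 39.1 ± 12.9 CPM per kb, Klf5 17.1 ± 5.24 and Tfap2c 12.5 ± 6.57. Grhl2 measured 82.3, 81.3, 43.4, 101, 142, 1.65 and 66.6 CPM, with lysate 6 far under the other 6. Foxa2, another forkhead factor of endoderm, averaged 0.760 ± 1.19 CPM, and the stem cell factor Sox2 measured 26.9, 0, 19.3, 19.2, 16.9, 36.5 and 1.84 CPM.

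The families differed in how many members were expressed. The expressed share was 28.9% over all listed factors and 36.5% over all genes. Of 167 homeobox genes, 24 (14.4%) were expressed and 74 were silent. Among ETS genes 12 of 24 (50%) were expressed, and among bZIP genes 21 of 43 (48.8%). The shares of 30 of 94 basic helix-loop-helix genes (31.9%), 12 of 44 forkhead genes (27.3%) and 13 of 47 nuclear receptors (27.7%) lay near that of all listed factors. Of 16 T-box genes 2 (12.5%) were expressed. Of 38 Hox genes, which mark position along the body axis, 10 were expressed. They belonged to 3 of the 4 clusters, with Hoxa7, Hoxa9, Hoxa10 and Hoxa11, Hoxb4, Hoxb7, Hoxb9 and Hoxb13, and Hoxd3 and Hoxd8. Hoxb7 led with 56.1 ± 23.8 CPM per kb, followed by Hoxa10 with 30.6 ± 10.8 and Hoxa9 with 19.8 ± 5.94. None of the 9 measured HoxC genes was expressed, 3 of them were silent, and their summed level did not pass 3.35 CPM in any lysate. Hoxb13, a posterior Hox gene known from prostate and hindgut, measured 22.4, 43.7, 18.1, 39.5, 13.5, 32.8 and 33.6 CPM. Hoxd13, a posterior Hox gene of the urogenital sinus and the limb, measured 11.3, 21.5, 20.4, 51.01, 17.5, 0.381 and 28.98 CPM and missed the threshold in lysate 6. Hoxa13 ran from 0.127 to 32.1 CPM and missed it in lysates 2 and 6, with a mean of 11.95 CPM over the 7 lysates and 7.73 CPM without lysates 4 and 5.

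**Figure D3:**
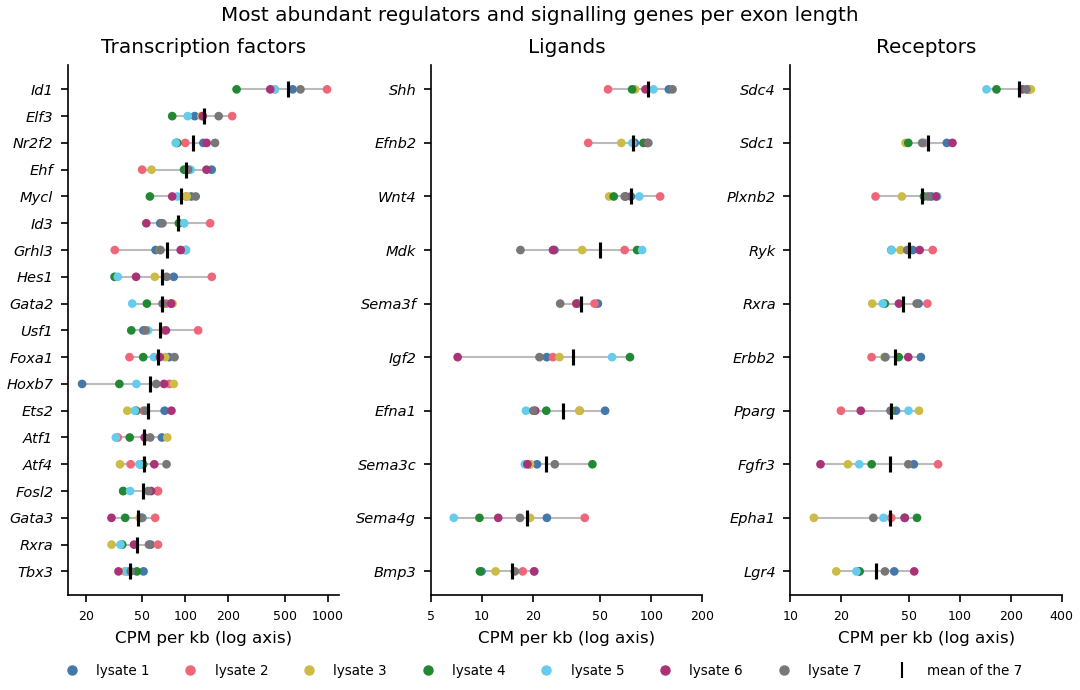
Level of 19 of the 20 transcription factors, and of the 10 ligands and 10 receptors, with the highest mean, in CPM per kb of exon on a log axis, with a dot for each of the 7 lysates and a bar at the mean. Id1 among the factors and Sdc4 among the receptors stood above the next gene, and Shh, Efnb2 and Wnt4 led the ligands.

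Of 150 genes of secreted or membrane-bound ligands, 26 (17.3%) were expressed and 36 were silent, against 36.5% expressed and 30.1% silent over all genes. Shh was the highest ligand per kb, and Efnb2 and Wnt4 did not differ from it beyond the spread. Efnb2, the membrane-bound ephrin-B2, measured 383, 203, 319, 431, 371, 453 and 461 CPM in lysates 1 to 7. Wnt4, a Wnt ligand, measured 318, 473, 237, 252, 357, 296 and 292 CPM. Mdk, the heparin-binding factor midkine, averaged 49.9 ± 29.5 CPM per kb, the semaphorin Sema3f 38.6 ± 6.63, the imprinted growth factor Igf2 34.5 ± 23.6, ephrin-A1, encoded by Efna1, 30.2 ± 13.1 and Sema3c 23.99 ± 9.72. Bmp3 averaged 15.1 ± 4.58 and Sema4g 18.5 ± 11.3 CPM per kb. The mean of Igf2 was 181 CPM over the 7 lysates and 114 CPM without lysates 4 and 5. By family, 7 of 15 semaphorins, 3 of 8 ephrins, 3 of 23 Wnt and R-spondin genes and 2 of 28 TGF-beta and BMP genes were expressed. None of 22 fibroblast growth factors was expressed, and 11 of them were silent. Neither Hgf nor the 4 ligands of the GDNF family passed the threshold.

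Of 141 receptor genes, 58 (41.1%) were expressed and 13 were silent, against 36.5% expressed and 30.1% silent over all genes of the table. The syndecans Sdc4 and Sdc1, heparan sulphate proteoglycans that hold growth factors, averaged 223 ± 48.2 and 64.9 ± 16.3 CPM per kb. The semaphorin receptor Plxnb2 averaged 59.7 ± 15.5, the Wnt co-receptor Ryk 50.4 ± 10.7, the EGF family receptor Erbb2 41.5 ± 9.89, the ephrin receptor Epha1 38.5 ± 13.8 and the R-spondin receptor Lgr4 32.2 ± 12.2 CPM per kb. Fgfr3, a fibroblast growth factor receptor often altered in human bladder cancer, measured 236, 327, 96.1, 133, 112, 66.2 and 219 CPM, and Fgfr2 204, 26.3, 44.5, 209, 154, 264 and 109 CPM. Both were expressed, while none of the 22 fibroblast growth factor genes was. Of the 22, 11 lay between, and the family summed to 0.829 to 36.6 CPM, so these ligands were not all absent. Met, the receptor of Hgf, was also expressed, with 111, 107, 69.8, 142, 144, 59.8 and 109.6 CPM. So were Ret and Gfra1, receptors of GDNF ligands, with means of 39.5 ± 11.8 and 96.8 ± 36.5 CPM. Hgf and the GDNF ligands did not pass the threshold, and the GDNF ligands summed to 0 to 10.4 CPM. Kit and its ligand Kitl were both expressed, with means of 72.8 ± 13.98 and 58.1 ± 45.3 CPM. Of 15 purinergic and mechanosensory channels and receptors, 1 was expressed, Trpm7. Piezo1 measured 30.1, 16.7, 23.6, 41.1, 13.3, 48.8 and 0 CPM and P2rx4 10.3, 2.57, 31.6, 6.94, 29.4, 0 and 3.68 CPM.

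The lysates held the hedgehog ligand but few transcripts of its response. None of the 7 response genes was expressed. Ptch1, the receptor and target, measured 8.41, 0.321, 0, 20.2, 36.5, 0 and 8.65 CPM in lysates 1 to 7. Gli1, the transcription factor that reports the signal, measured 0.0772, 0, 0.167, 12.6, 0, 0 and 3.40 CPM. Ptch1 was highest in lysate 5 and next in lysate 4, while Gli1 was highest in lysate 4 and 0 in lysate 5. The summed level of the 7 genes was 23.2, 12.5, 15.7, 72.8, 62.8, 0.127 and 20.5 CPM, and the 2 highest sums were those of lysates 4 and 5, which also held the most stromal transcripts, whose part in these values was not tested. The mean sum was 29.7 CPM over the 7 lysates and 14.4 CPM without lysates 4 and 5, and the mean of Ptch1 was 10.6 and 3.48 CPM. The signal transducer Smo, which is needed in receiving cells, averaged 60.7 ± 37.6 CPM.

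Responses to other signals were mixed. Of 8 Notch response genes, Hes1, Hes6 and Nrarp were expressed, at 68.9, 23.2 and 7.65 CPM per kb, and Hes2 and Hes5 were silent. Of 17 Wnt response genes and inhibitors, Tcf7l2 and Sfrp2 were expressed. Axin2, the usual reporter of canonical Wnt signals, measured 3.16, 0.321, 0, 2.52, 0.237, 0 and 7.45 CPM, and Lef1 averaged 0.172 ± 0.287 CPM. Among BMP antagonists 1 of 8, Fstl1, was expressed. In the retinoid list, 2 of 12 genes were expressed, among them the synthesis enzyme Aldh1a2 at 13.4 ± 11.5 CPM per kb, and the degrading enzymes Cyp26a1 and Cyp26c1 were silent. Aldh1a2, which is better known from mesenchyme, measured 13.04, 3.53, 74.00, 56.6, 13.5, 33.8 and 17.5 CPM. Insulin-like growth factor binding proteins were led by Igfbp5 at 341 ± 82.3 CPM per kb, with 2361, 1344, 1409.6, 2319, 1974, 2332 and 2602 CPM in lysates 1 to 7.

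Genes of cell division were present in every lysate. Of 31 cell cycle genes, 25 were expressed, including all 9 genes of S phase and 10 of 11 genes of the G2 and M phases. Pcna, the DNA polymerase clamp, averaged 90.6 ± 25.03 CPM per kb, Birc5, survivin, 85.2 ± 28.6, topoisomerase Top2a 64.9 ± 29.6 and Mki67, the Ki-67 antigen, 47.4 ± 15.5. Mki67 measured 351, 247, 507, 741, 527, 437 and 529 CPM in lysates 1 to 7, lowest in lysate 2 and highest in lysate 4. The D cyclins were used unequally. Ccnd2 averaged 62.9 ± 24.02 CPM per kb, Ccnd3 43.6 ± 12.1 and Ccnd1 0.833 ± 1.29, so the Ccnd1 level was below both others by more than the spread. Ccnd1 measured 0.386, 0.643, 0.670, 7.11, 12.4, 0 and 0.552 CPM, and its 2 highest values fell in lysates 4 and 5, where the part of stromal transcripts was not tested. Its mean was 3.11 CPM over the 7 lysates and 0.450 CPM without those 2. The cell cycle inhibitor Cdkn1c, an imprinted gene, averaged 149.7 ± 48.1 CPM per kb, the highest of the list, with 222, 231, 491, 274, 263, 240.5 and 315 CPM in lysates 1 to 7. Cdkn2a, the locus of p16 and p19, was silent.

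Of 8 genes that write, guide or erase DNA methylation, 6 were expressed. Dnmt1, the maintenance methyltransferase that the study deletes in its other group, measured 147, 38.9, 51.7, 161, 199, 88.8 and 172 CPM in lysates 1 to 7. It was lowest in lysates 2 and 3. Uhrf1, which brings DNMT1 to replicated DNA, averaged 40.05 ± 9.25 CPM per kb, the de novo enzyme Dnmt3a 33.5 ± 7.35 and Dnmt1 19.5 ± 9.95. The other de novo enzyme Dnmt3b measured 12.04, 0, 0, 8.76, 0, 0 and 9.20 CPM, and its cofactor Dnmt3l reached at most 2.78 CPM. Of the TET dioxygenases, Tet3 averaged 16.5 ± 4.28, Tet2 5.41 ± 3.65 and Tet1 1.80 ± 0.866 CPM per kb. Of 24 imprinted genes, 13 were expressed, led after Cdkn1c by Gnas at 99.1 ± 16.1, Grb10 at 65.6 ± 31.7, Peg3 at 35.7 ± 13.8 and Igf2 at 34.5 ± 23.6 CPM per kb.

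Genes of transport, stress and the p53 response were present in part. Of 17 water and ion transport genes, 7 were expressed. The carbonic anhydrase Car2 averaged 208 ± 45.8 CPM per kb, close to Aqp3, and the sodium pump chain Atp1b1 averaged 141 ± 25.01. The epithelial sodium channel was present by its gamma chain Scnn1g at 19.2 ± 9.11 CPM per kb, while Scnn1b and Scnn1a averaged 3.67 ± 2.76 and 0.178 ± 0.309, and Aqp4, Aqp5, Aqp9 and Clic3 were silent. The urea transporter Slc14a1 of the adult urothelium measured 19.2, 6.11, 34.2, 15.1, 7.46, 0.635 and 28.3 CPM. Of 16 immediate early genes, which tissue handling can induce, 6 were expressed and 3, Egr2, Atf3 and Klf2, were silent. Ier2 averaged 67.02 ± 25.98 CPM per kb, Fos ran from 0 to 46.3 CPM and Jun from 0.635 to 43.7 CPM, both lowest in lysate 6. The mean of Fos was 22.3 CPM over the 7 lysates and 14.5 CPM without lysates 2 and 3, and that of Jun was 20.8 CPM over the 7 and 12.8 CPM without lysates 4 and 5. Of 7 heat shock genes 6 were expressed, led by the constitutive Hspa8 at 1344 ± 199 and Hsp90aa1 at 487 ± 71.9 CPM per kb. Of 13 genes of the p53 response, 10 were expressed, led by Btg2 at 51.4 ± 23.7 and Ccng1 at 40.6 ± 4.88 CPM per kb.

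Transcripts of other cell types were traced with marker lists. Of 20 markers of fibroblasts and smooth muscle, 10 were expressed and none was silent, and their summed level was 417, 184, 609, 1970.0, 3382, 683 and 456 CPM in lysates 1 to 7. The mean sum was 1100.1 ± 1162 CPM with the 7 lysates and 470 CPM without lysates 4 and 5. The luminal mean sum was 14632 ± 1766 CPM. These sums cover unlike genes and are not divided by length, so their ratio is not the stromal share of a lysate. Col3a1, a fibrillar collagen of fibroblasts, measured 146, 60.4, 202, 713, 1088, 143 and 137 CPM. Acta2, smooth muscle actin, measured 13.8, 2.57, 12.9, 64.1, 213, 2.79 and 14.5 CPM. Both were highest in lysate 5. Without lysates 4 and 5 the mean of Col3a1 was 138 CPM, against 356 CPM with them, and that of Acta2 was 9.32 CPM, against 46.2 CPM with them. Of 4 mesothelial markers, Upk3b and Msln were expressed, with sums of 93.6 to 407 CPM over the list, while Lrrn4 was silent and Wt1 averaged 4.30 ± 3.50 CPM. None of 7 endothelial markers and none of 8 immune markers was expressed. The endothelial sums ran from 0.335 to 29.03 CPM and the immune sums from 0 to 27.8 CPM, and in lysate 3, which had the highest immune sum, the macrophage gene Aif1 stood at 19.3 CPM. Of 8 neural and glial markers Ret and Stmn2 were expressed, and Sox10 of the neural crest was silent. Globin transcripts of blood were found in each lysate, with erythroid sums of 68.1, 289, 314, 324, 377, 221 and 141 CPM, and the embryonic globin Hbb-bh1 was silent. The adult globins Hba-a1 and Hba-a2 are near-identical, so reads between them can be split.

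Genes of neighbouring and unrelated organs were mostly low. Of 53 such genes, 9 were expressed and 20 were silent. The highest per kb of exon were Tmprss2, a serine protease of prostate and other epithelia, at 166 CPM per kb, with 699, 371, 516, 474, 483, 601 and 527 CPM in lysates 1 to 7, and Ttr, the thyroid hormone carrier of liver and choroid plexus, at 69.4 CPM per kb, with 86.7, 191, 113, 28.7, 34.7, 58.8 and 63.8 CPM. Tmprss2 was highest in lysate 1 and lowest in lysate 2, and Ttr was highest in lysate 2 and lowest in lysate 4. The mean of Ttr was 82.3 CPM over the 7 lysates and 54.6 CPM without lysates 2 and 3. Other expressed genes of the list belong to the nephric and sinus lineages, among them Sox9, Gfra1, Hoxb13, Barx2, Ret and Wnt11. Pax2 and Lhx1 of the Wolffian duct, Pbsn of the prostate, Cdx1, Cdx2 and Muc2 of the gut, Nkx2-1 and Sftpc of the lung, Afp of the fetal liver and Myod1 of muscle were silent. Alb, the albumin of the liver, measured 2.01, 9.64, 7.53, 23.6, 10.9, 0.254 and 13.7 CPM.

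The 6118 silent genes included nearly whole families of sensory receptors and of other terminal fates. Olfactory receptors made up 1080 of them (17.7%), out of 1086 in the table, and vomeronasal receptors 316 (5.17%), out of 321. All 21 late cornified envelope genes, 45 of 46 keratin-associated protein genes and 41 of 42 beta defensins were silent too. These families were picked after their values were seen. Over the 60752983 counts of the 7 lysates, 3 counts amount to 0.0494 CPM, and in a single lysate to between 0.232 CPM in lysate 1 and 0.964 CPM in lysate 2. As counting error alone, these are the levels that a 0 allows, but they bound nothing for a gene whose reads were not assigned to it, as may be the case for Rps27. Of 81 histone genes 38 were silent. Transcripts of the replication-dependent histones carry no poly(A) tail, on which the capture of RNA rests, and the part of this in their zeros was not tested.

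Of 24 germline genes, 1 (4.17%) was expressed, 8 were silent and 15 lay between, against 36.5% expressed and 30.1% silent over all genes. The silent share was thus near that of all genes. The silent ones were Mael, Tex101, Dpep3, Hormad1, Asz1, Tdrd9, Dppa3 and Zp3. The expressed one, Tdrd1, a Tudor domain protein of the piRNA pathway, measured 6.88, 3.88, 36.3, 30.1, 13.7, 33.1 and 14.2 CPM in lysates 1 to 7. Its lowest value fell in lysate 2 and its highest in lysate 3. Of 20 genes of the X-linked Rhox and Xlr clusters none was expressed and 8, all of them Rhox genes, were silent. Xlr3a measured 45.1, 24.1, 31.9, 26.05, 35.7, 0 and 37.9 CPM, at 0 in lysate 6 and above 20 CPM in the other 6, and reads of Xlr3a and Xlr3b can be split between near-identical copies. Rhox8 measured 1.68, 26.8, 0.768, 5.10, 0, 8.63 and 11.1 CPM. Of 10 pluripotency genes none was expressed, and Pou5f1, Dppa4, Tdgf1 and Lin28a were silent. Zfp42 averaged 2.57 ± 3.41 CPM and Nanog 2.04 ± 2.89 CPM.

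Promoter windows of expressed and silent genes differed in CpG content. Of the 7415 expressed genes, 5986 (80.7%) were matched by symbol to a RefSeq window, and of the 6118 silent genes 4937 (80.7%). The window of an expressed gene held a median of 23 CG and that of a silent gene a median of 3. With a ratio of found to expected CG of at least 0.6 counted as CpG-rich, 81.2% of the expressed windows and 10.98% of the silent ones were CpG-rich, against 50.9% of all 16215 windows read. The motif TATAAA was found on the strand of the gene in 3.71% of expressed and 17.97% of silent windows, and on either strand in 6.01% and 25.5%, against 8.78% and 12.99% over all windows. The CpG-rich share was 78.7% for genes that averaged 10 to 100 CPM, 84.2% for those of 100 to 1000 CPM and 87.8% for those of at least 1000 CPM. TATAAA on the strand of the gene was found in 3.52%, 4.03% and 11.1% of the windows of these classes. The last share is 10 of 90 windows and lies above that of all windows. The windows describe the reference sequence, and methylation was not measured.

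**Figure D4:**
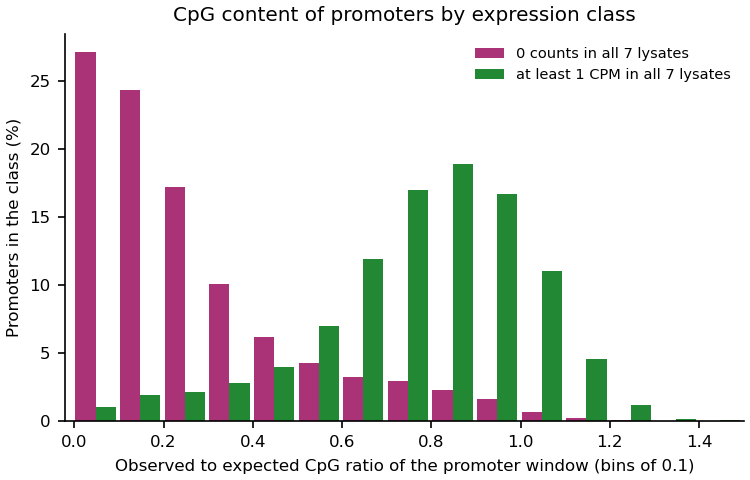
Histogram of the ratio of found to expected CG (x axis) in promoter windows of expressed and of silent genes (y axis, percent of the windows of each class). Most silent windows lay under a ratio of 0.6 and most expressed windows above it.

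Germline windows depended on where CpG-rich begins. Of the 21 germline genes with a window (87.5% of 24), 15 (71.4%) were CpG-rich at a ratio of 0.6, against 50.9% of all windows. The share was 100% at a ratio of 0.4 and 33.3% at 0.75. Of the 7 silent ones with a window 4 (57.1%) were CpG-rich at 0.6, 100% at 0.4 and 28.6% at 0.75. None of the 17 Rhox and Xlr windows (85% of 20) was CpG-rich at 0.6, and 52.9% were at 0.4. The windows of 3 silent germline genes are printed, picked because they are CpG-rich, to show such promoters without a count in any lysate. Mael, a factor of the piRNA pathway (chr1:166238695-166238994, minus strand), has 24 CG and a ratio of 0.780, Asz1, a germ cell protein of the same pathway (chr6:18109012-18109311, minus strand), has 17 and 0.783, and Tex101, a GPI-anchored protein of germ cells (chr7:24672001-24672300, minus strand), has 19 and 0.700. Capitals again mark each CG and each TATAAA.
Mael: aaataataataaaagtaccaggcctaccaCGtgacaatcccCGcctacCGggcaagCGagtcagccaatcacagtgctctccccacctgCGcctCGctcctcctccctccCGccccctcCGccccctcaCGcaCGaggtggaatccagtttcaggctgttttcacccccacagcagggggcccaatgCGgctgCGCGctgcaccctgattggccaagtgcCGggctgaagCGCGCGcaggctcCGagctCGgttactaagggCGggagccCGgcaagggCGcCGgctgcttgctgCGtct
Asz1: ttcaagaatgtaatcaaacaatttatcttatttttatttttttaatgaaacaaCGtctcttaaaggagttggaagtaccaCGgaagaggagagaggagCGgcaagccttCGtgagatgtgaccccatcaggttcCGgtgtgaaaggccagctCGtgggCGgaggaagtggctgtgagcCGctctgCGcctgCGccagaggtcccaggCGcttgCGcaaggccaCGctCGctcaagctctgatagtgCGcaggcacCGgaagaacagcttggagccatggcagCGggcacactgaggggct
Tex101: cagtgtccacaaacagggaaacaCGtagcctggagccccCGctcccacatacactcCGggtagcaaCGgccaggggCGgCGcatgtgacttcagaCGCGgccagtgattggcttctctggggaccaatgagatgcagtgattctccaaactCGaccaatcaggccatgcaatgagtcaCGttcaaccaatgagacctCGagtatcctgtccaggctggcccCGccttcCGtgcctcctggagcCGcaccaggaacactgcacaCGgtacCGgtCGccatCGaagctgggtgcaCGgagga
Of the other silent germline windows, Hormad1 holds 24 CG, Dpep3 12, Tdrd9 10 and Zp3 7.

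The spread between lysates was measured for the expressed genes as the biological coefficient of variation, the part of the standard deviation, in percent of the mean, that edgeR estimates beyond counting error. Its median was 40.4% (quartiles 29.04% and 54.7%). It was 27.3% for genes of at least 1000 CPM, 29.1% for 100 to 1000 CPM, 45.9% for 10 to 100 CPM and 65.3% for the 77 expressed genes of 1 to 10 CPM. Without lysates 2 and 3 the median was 30.8%, and without lysates 4 and 5 it was 40.7%. Of the expressed genes 41 exceeded 100% and 652 stayed under 20%.

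The expressed genes that varied most included several of matrix and muscle. Of 7174 genes that averaged at least 20 CPM, 6702 were expressed, and the ranking was drawn from these. A gene under 1 CPM in any lysate could not enter it, however uneven its values were. Among the 12 most variable with a mean of at least 20 CPM, between 105% and 137%, 6 encode a collagen, smooth muscle actin or the galectin Lgals1, and 7 of the 12 were highest in lysate 5. They were Acta2 (137%), the collagens Col5a2, Col6a1, Col6a2 and Col1a2, the lectin Lgals1, Epm2aip1, Acyp1, Herc2, Snhg11, Nup88 and Ppih. Col1a2, a chain of collagen I, measured 73.2, 19.3, 102, 421, 877, 276 and 117 CPM in lysates 1 to 7. Its values in lysates 4 and 5 stood above the other 5, and its mean was 269 CPM over the 7 lysates and 117 CPM without those 2. The gene is itself a member of the stromal list. Herc2, a very long ubiquitin ligase transcript, measured 97.1, 2.25, 15.7, 193, 101, 177 and 120.4 CPM, and it was lowest in lysates 2 and 3. Its mean was 101 CPM over the 7 lysates and 137 CPM without them. Lgals1, a short transcript of galectin-1, measured 25.8, 3.53, 68.1, 40.3, 96.8, 2.67 and 14.9 CPM, and its mean was 36.02 CPM over the 7 lysates and 23.00 CPM without lysates 4 and 5.

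The 12 least variable genes lay between 5.17% and 8.10%. Tdg, the thymine DNA glycosylase that acts in DNA demethylation, measured 400.4, 363, 329.8, 385, 395, 341 and 370.2 CPM in lysates 1 to 7. Its highest value was 1.21 times the lowest. Akr1a1, an aldehyde reductase, measured 707, 619, 762, 666, 701, 698 and 739 CPM, and Anxa2, the membrane-binding annexin A2, 843, 732, 714, 706, 673, 756 and 709 CPM. The other 9 were Samd14, Fam3c, Ccng1, Sys1, Nars, Wdr1, Atp5b, Ttll1 and Rab14, genes of secretion, translation, the cytoskeleton and mitochondria among them. Of the marker genes, Upk1b varied by 23.1%, Krt7 by 18.2%, Shh by 25.6%, Krt5 by 32.01% and Trp63 by 42.1%, against the median of 40.4% over the expressed genes.

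**Figure D5:**
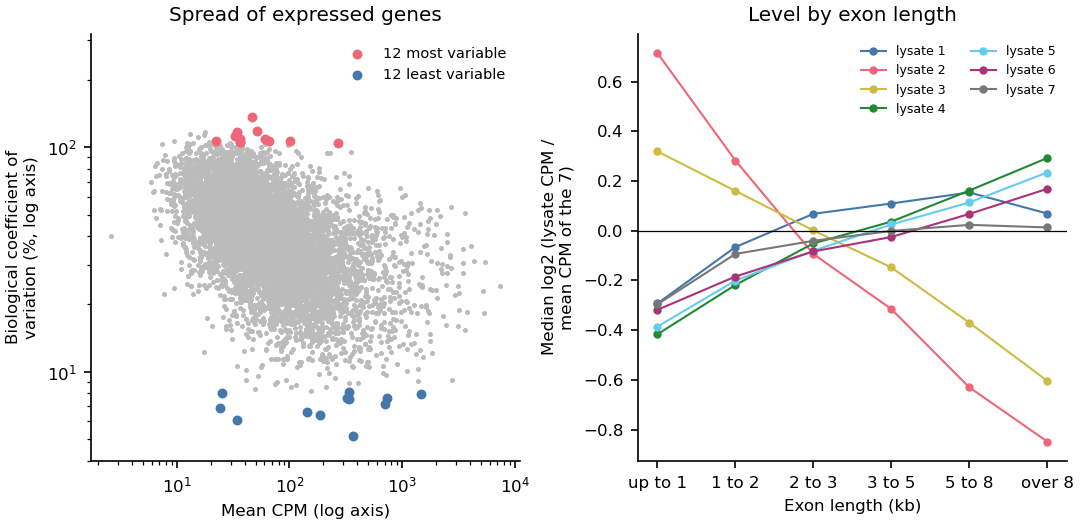
Left, biological coefficient of variation in percent against mean CPM, both on log axes, for expressed genes, with the 12 most and 12 least variable genes marked. Right, median log2 ratio of each lysate to the mean of the 7 for expressed genes by exon length, where lysates 2 and 3 run from above 0 for short to below 0 for long transcripts.

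Some genes were missing from single lysates at levels where counts would be found. A gene was counted as missing where a lysate had 0 counts although at least 20 were expected from the mean of the other 6. This was so for 256, 595, 766, 290, 782, 1283 and 697 genes in lysates 1 to 7, or 2.24%, 6.13%, 7.22%, 2.56%, 7.11%, 11.7% and 6.16% of the genes with such an expectation. In all, 2883 genes were missing from at least 1 lysate, 189 of them with a mean of at least 20 CPM. Lysate 6, which was of middle depth, had the most, and lysate 1, the deepest, the fewest. A 0 in 1 lysate alone therefore does not show that a gene was off in its embryos.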

How the data were processed

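The deposited values are expected counts from RSEM, unscaled, in a single table with 20308 gene symbols. Per the submitters' processing notes, reads passed through bcl2fastq 2.17.1.14, and RSEM 1.2.3 and Bowtie 0.12.9 were used with mm10. Which annotation was counted, and whether strand was used, is not given in the sources used here. The 7 Cre-negative columns were read by their names. CPM used the expected counts as deposited and their sum in each lysate. Zeros and the coefficient of variation used counts rounded to whole numbers. With unrounded counts 6099 genes were silent in place of 6118. Exon lengths were unions of GENCODE M21 basic exons, matched by symbol for 20192 genes. Of the 7415 expressed genes 4073 had a count that was not whole in at least 1 lysate, within 0.005, which marks reads shared with other genes. Among the 167 genes given with values, 51 had such counts in at least 4 lysates.

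The coefficient of variation came from gene-wise dispersions of edgeR 4.0.16 in R 4.3.3, with an intercept, TMM scaling and a prior of 0 degrees of freedom, and was tested on simulated data. No groups were compared, so there are no p-values. Libraries were amplified without molecular identifiers, so floors cover counting error only, and the spread is that between pooled lysates, which may be technical. Promoter windows came from RefSeq, GRCm38.p6.

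The lysates, the 37 gene lists and the naming rule were chosen with earlier results of these data known. The rule named the 5 markers, the 15 genes highest in CPM and in CPM per kb, up to 6 expressed members of a list by CPM per kb (20 transcription factors, 10 ligands, 10 receptors), up to 4 silent members and the 12 most and 12 least variable genes. Expressed genes named beyond these were chosen after their values were seen. Uncharacterised loci were counted and not named (211 expressed), and a few genes under the rule are not reported here. Alternatives were other thresholds, scalings and CpG ratios, thinning, and leaving out lysates.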

Additional observations from a re-analysis of the deposited data

Results flagged for a closer look

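Among 179 values of genes and list sums tested, 24 had 1 lysate whose gap to the nearest other lysate was larger, as a share of the range, than Dixon's critical value for 7 values. For values chosen without regard to their spread, chance alone passes this mark in about 1 of 20, or more often for values bunched near 0. Some genes here were picked after their values were seen or were named as most variable. That rate does not apply to them, so the count of 24 cannot be set against it, and single cases carry little weight. No explanation was weighed. Lysate 1 was high for Ngfr at 2.11 CPM (0 to 0.802) and Krt1 at 4.48 CPM (0 to 0.260), with the range of the other 6 lysates in parentheses. Lysate 1 was low for Hsp90aa1 at 1128 CPM (1592 to 1804). Lysate 2 was high for Upk2 at 472 CPM (141 to 283), Eef1a1 at 10480.1 CPM (5954 to 7854), Hes1 at 225 CPM (46.8 to 122) and Usf1 at 309 CPM (105 to 184). Lysate 2 was also high for Rhox8 at 26.8 CPM (0 to 11.1). Lysate 2 was low for Itgb1 at 449 CPM (671 to 812) and the summed Y-linked genes at 2.25 CPM (226 to 391). Lysate 3 was high for Krt20 at 24.6 CPM (0 to 9.83), Cdkn1c at 491 CPM (222 to 315), Aif1 at 19.3 CPM (0 to 1.65) and Nanog at 8.08 CPM (0 to 3.02). Lysate 3 was also high for the summed immune markers at 27.8 CPM (0 to 10.2). Lysate 4 was high for Lor at 0.694 CPM (0 to 0.0772), Sema3c at 247 CPM (98.5 to 148), Gli1 at 12.6 CPM (0 to 3.40) and Lef1 at 0.781 CPM (0 to 0.254). Lysate 4 was also high for Scnn1a at 3.56 CPM (0 to 0.736). Lysate 5 was high for Ret at 65.2 CPM (31.9 to 40.8) and Acta2 at 213 CPM (2.57 to 64.1). Lysate 6 was high for the summed basal markers at 6792 CPM (3439 to 4666). Lysate 7 was high for Axin2 at 7.45 CPM (0 to 3.16). Of the 24 values, 7 fell in lysate 2, 5 in lysate 3, 5 in lysate 4, 3 in lysate 1, 2 in lysate 5 and 1 each in lysates 6 and 7. Lysate 2 was the shallowest and leaned most toward short transcripts, and lysates 4 and 5 held the most stromal transcripts, whose part in these values was not tested.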

How the results depend on the processing

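Of 146 recomputed values, 144 stayed within 1.5 times the main count or within 1 SD of the main value. The second mark is a wide one where lysates differ much. Leaving out 1 or 2 of 7 lysates cannot move a mean by 1 SD of the 7. For means and mean sums these alternatives could therefore not fail the second mark, and their part of the 144 shows nothing. The stromal sum of 1100 ± 1162 CPM met it with 470 CPM without lysates 4 and 5. The number of expressed genes was 7415, and it ran from 6595 with a threshold of 5 CPM to 10506 when 1 CPM was asked of 4 of 7 lysates. Leaving out 1 lysate at a time gave 7416 to 7956 expressed and 6208 to 6492 silent genes. The 2 values that moved concern the share of silent promoters called CpG-rich, which was 10.98% at a ratio of 0.6, 21.4% at 0.4 and 6.14% at 0.75, as the rule itself sets. The alternatives chosen after seeing the data left out lysates 2 and 3 or lysates 4 and 5, or used shrunken dispersions, which gave a median variation of 45.1% in place of 40.4%. The summed stromal markers depended on single lysates, with means of 720 to 1253 CPM when 1 lysate was left out, and 720 without lysate 5. No paired analysis was possible because only 1 group was analysed. Depth limits what can be called silent, since 3 counts amount to 0.964 CPM in lysate 2.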
